A study of Mus musculus with 23 samples.

Results

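The integrated stress response genes described here are 10: Atf4, Atf5, Atf3, Ddit3, Trib3, Asns, Chac1, Sesn2, Psat1 and Ppp1r15a. They were found by gene name in the scanner files and were read by 12 of the 55681 probes of the array, with 2 probes each for Atf4 and Psat1 and 1 for every other gene. All 10 were among the 21477 genes tested. Atf5 was singled out by its own difference between the diets in these arrays, and the other 9 are genes of the same pathway. The diet differences of all 10 are therefore given as descriptions. The relations of Atf5 with the other genes over the mice within each diet are what was planned as a test.

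Scrapings of the small intestine came from adult male C57BL/6J mice, and every mouse had a normal-fat diet for 3 weeks before the study diets. For the next 12 weeks, 11 mice ate a high-fat diet holding 0.33% quercetin by weight (HF-Q), and 12 mice ate the high-fat diet without it (HF). All were fasted for 2 to 4 hours before sampling. Of 24 mice at the start, 1 quercetin-fed mouse was excluded by the submitters. Quercetin is a plant flavonoid. No group had a normal-fat diet throughout, so both groups carry the effect of fat feeding. Each mouse's RNA was labelled with Cy5 and hybridised against one Cy3-labelled pool to which every mouse gave an equimolar share, and the dyes were not swapped. A level below is the log2 ratio of a mouse to that pool, so 0 is the level of the pool and a value says nothing of how abundant one gene is against another.

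The arrays lay on 3 slides, with 4 HF-Q and 4 HF mice on slide 1, 3 and 4 on slide 2, and 4 and 4 on slide 3. Between 27085 and 31525 probes per array were well above background. A scraping is a mixture, so fewer cells of a type and less RNA per cell cannot be told apart. All 12 enterocyte markers were above background on every array. One protocol field names liver where all other labels name the small intestine, and of 10 hepatocyte markers 5 were above background on all arrays, while Ahsg and Mup3 were so on none. Pancreatic acinar markers, 15 of 15 measured and 12 of them above background on all arrays, had mean log2 levels between −3.53 and 2.17 in HF-Q mice (median −1.46) and between −3.41 and 1.75 in HF mice (median −0.96). Smooth muscle markers, 9 of 10 measured and all 9 above background on all arrays, had mean log2 levels between −1.24 and 0.76 in HF-Q mice and between −0.65 and 1.02 in HF mice. With both scores as covariates the Atf5 difference described below was −0.24 on the log2 scale. That fit uses the values that chose Atf5, and the part of acinar and muscle cells in the difference was not tested. T cell markers, 8 of 8 measured and above background on all arrays, had mean log2 levels between −0.12 and 0.41 in HF-Q mice (median 0.11) and between −0.35 and 0.18 in HF mice (median −0.066). In HF-Q 6 of the 8 were higher (48.1% of all genes were), led by the granzymes Gzma (0.43 ± 0.15, SE) and Gzmb (0.43 ± 0.13, SE). Both were named after seeing the data. Of the 8 markers 0 passed limma over all genes, and 4 were higher at an unadjusted p under 0.05 (2.10% of all genes). Their part in the diet differences below was not tested.

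In the integrated stress response, kinases that sense amino acid shortage, unfolded protein, haem shortage or viral RNA phosphorylate the initiation factor eIF2. General translation then falls, while the mRNAs of the bZIP transcription factors Atf4 and Atf5, which carry upstream open reading frames, are translated more. Atf4 switches on genes of amino acid synthesis and uptake, tRNA charging and stress signalling, and Atf5 is in addition tied to the unfolded protein response of mitochondria. Because both factors are controlled mainly at translation, an array reads their mRNA and not their protein.

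The probes that carry the results on Atf5 and Atf4 are shown by their first 30 bases, since the values of the gene rest on where a single probe sits. The Atf5 probe lies at chr7:52067627-52067686 on the minus strand. The brighter Atf4 probe lies at chr15:80087902-80087961 and the dimmer one at chr15:80086639-80086698, both on the plus strand. These positions are on mm9, as the scanner files give them, and no annotation of that build was used.
Atf5 probe: tctagtggaggctgatcctctaggggttat
Atf4 probe, brighter: ggtgctttgtgcttgtacatagtcttgtgt
Atf4 probe, dimmer: tcttcacgaaatccagcagcagtgttgctg

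The start regions of the 10 genes were searched for sequence elements of the pathway in the 12 RefSeq promoter windows that matched them (GRCm38.p6, 250 bases before to 50 bases after the start). The C/EBP-ATF response element bound by Atf4 was searched as TGATGNAA on both strands, and the cAMP response element as TGACGTCA, which is its own reverse complement. The first was in the windows of 4 of the 10 genes, Atf3, Trib3, Asns and Chac1, and in 3.97% of 32851 windows of the genome. The second was in the window of Ppp1r15a and in 1.79% of all windows. The endoplasmic reticulum stress element (ERSE), on either strand, was in none of the 12 windows and in 0.119% of all. Neither of the 2 Atf5 windows nor the Atf4 window held any of the 3. The matches before the start are shown with the element in capitals, read 5′ to 3′ along the strand of the gene; a match is a string of letters and not a measured binding site. The Asns match began 23 bases before the start (chr6:7693215-7693242, minus strand), the Atf3 match 110 bases (chr1:191183426-191183453, minus strand), the Chac1 match 193 bases (chr2:119351039-119351066, plus strand) and the Ppp1r15a match 12 bases (chr7:45526269-45526290, minus strand). In Atf3 and Chac1 the element reads on the opposite strand, so its reverse complement is in capitals.
Asns: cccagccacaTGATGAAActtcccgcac
Atf3: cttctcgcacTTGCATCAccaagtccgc
Chac1: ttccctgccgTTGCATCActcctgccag
Ppp1r15a: gcctctccggTGACGTCAgcac

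The first comparison set HF-Q mice against HF mice, gene by gene. Atf5 stood at 0.843 times its HF level in HF-Q mice, and Atf4 on its brighter probe at 0.895 times. The other 8 genes had differences smaller than the SD between mice of one diet. Over all genes, limma with Benjamini-Hochberg adjustment called 0 of 21477 (0%), with a smallest adjusted p of 0.951, and an unadjusted p under 0.05 was found for 972 genes (4.53%), of which 520 were lower in HF-Q (2.42%) and 452 higher (2.10%). Of the 10 genes 8 had a negative difference (5 with median centring of each array in place of loess) and 2 a positive one, with a median of −0.083 on the log2 scale. The median over all genes was −0.0038, and 51.9% of them had a negative difference. Without Atf5, 7 of 9 were negative and the median was −0.050.

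Atf5 had log2 levels with a lowest value of −0.51, a median of −0.26 and a highest of −0.098 in HF-Q mice, against −0.29, −0.0080 and 0.25 in HF mice. All 11 HF-Q mice lay below the median of the HF mice, but the groups overlapped, since 2 HF mice fell below the highest HF-Q mouse. The means were −0.26 ± 0.13 in HF-Q (SD, n = 11) and −0.015 ± 0.13 in HF (SD, n = 12). The difference was −0.25 ± 0.056 (SE; 95% interval −0.36 to −0.13), which is a level of 0.843 times that of HF (0.778 to 0.913). Atf5 ranked as the third of all genes by unadjusted p, which is the value that chose it, so no p is given here. Within the slides the difference was −0.27, −0.27 and −0.21. These are parts of the values that chose Atf5, so their shared sign is no separate support.

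Atf4, the central transcription factor of the pathway, had log2 levels of −0.10, 0.20 and 0.31 (lowest, median, highest) in HF-Q mice, against 0.077, 0.32 and 0.62 in HF mice, on its brighter probe. On that probe each of the 11 HF-Q mice was under the HF median, although the ranges overlapped widely. The means were 0.14 ± 0.13 in HF-Q (SD, n = 11) and 0.31 ± 0.16 in HF (SD, n = 12), a difference of −0.16 ± 0.062 (SE; interval −0.29 to −0.033). The dimmer Atf4 probe did not show it. It had −0.31, 0.010 and 0.34 in HF-Q mice, against −0.16, 0.025 and 0.28 in HF mice, and a difference of 0.0021 ± 0.064 (SE; interval −0.13 to 0.13), and 7 of the 11 HF-Q mice had a value under the median of the HF mice. The deviations of the 2 probes from their diet means correlated with r = 0.104 over the 23 mice. In the Cy5 channel of the mice the brighter probe varied with an SD of 0.142 and the dimmer one with 0.160 on the log2 scale, against 0.105 and 0.0511 in the Cy3 channel, which holds the same pool on every array. For the Atf5 probe these SDs were 0.178 in the mouse channel and 0.0267 in the pool channel. The brighter Atf4 probe thus had a pool spread close to its spread over mice, and the Atf5 probe did not. The mouse-channel SDs take both diets together, so that of Atf5 includes the difference that chose it. The within-diet SD of its log2 ratio was 0.130. The median Cy5 signal was 84757 for the brighter Atf4 probe, 1564 for the dimmer one and 5019 for Atf5. The dimmer Atf4 probe was above background in all 11 HF-Q and all 12 HF mice.

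The other 2 transcription factors differed less than their spread. Atf3, a stress-induced bZIP factor, had −0.46, 0.0018 and 0.45 in HF-Q mice, against −0.97, 0.11 and 0.25 in HF mice, where HF replicate 12 alone set the lowest value. Its difference was 0.050 ± 0.12 (SE), and −0.033 without that mouse. Ddit3, which encodes the pro-apoptotic factor CHOP, had −0.43, −0.19 and 0.27 in HF-Q mice, against −0.30, −0.12 and 0.65 in HF mice, a difference of −0.12 ± 0.11 (SE). In both genes the ranges of the diets overlapped, Atf3 reaching lower in HF and Ddit3 higher in HF.

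The same held for the feedback regulators. Trib3, a pseudokinase induced by Atf4 and Ddit3 that restrains them in turn, had −0.59, −0.17 and 0.24 in HF-Q mice, against −0.46, 0.045 and 0.64 in HF mice. Its difference of −0.20 ± 0.13 (SE) was the second largest of the 10 in size, with an interval of −0.46 to 0.059. Ppp1r15a, the GADD34 subunit that directs a phosphatase to eIF2, had −0.28, −0.073 and 0.31 in HF-Q mice, against −0.28, 0.0052 and 0.31 in HF mice, and a difference of −0.050 ± 0.079 (SE). Its levels spanned nearly the same range in both diets.

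The metabolic targets did not separate the diets either. Asns, asparagine synthetase, had −0.62, −0.10 and 0.41 in HF-Q mice, against −0.45, 0.10 and 0.38 in HF mice (difference −0.046 ± 0.12, SE). Psat1, which makes phosphoserine on the way to serine, had −0.50, 0.10 and 0.41 in HF-Q mice, against −0.65, 0.14 and 0.40 in HF mice (difference 0.047 ± 0.13, SE). Its second probe was above background in 7 of 11 HF-Q and 10 of 12 HF mice and had a difference of −0.13 ± 0.063 (SE), so the 2 Psat1 probes had opposite signs. Chac1, which breaks down glutathione, had −0.65, −0.063 and 0.60 in HF-Q mice, against −0.78, 0.18 and 0.71 in HF mice (difference −0.15 ± 0.16, SE). Sesn2, a leucine sensor that holds back mTORC1, had −0.26, 0.13 and 0.31 in HF-Q mice, against −0.32, 0.14 and 0.37 in HF mice (difference −0.0053 ± 0.085, SE). For all 10 genes the 95% interval of the difference lay within a 1.5-fold change in either direction.

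**Figure D1:**
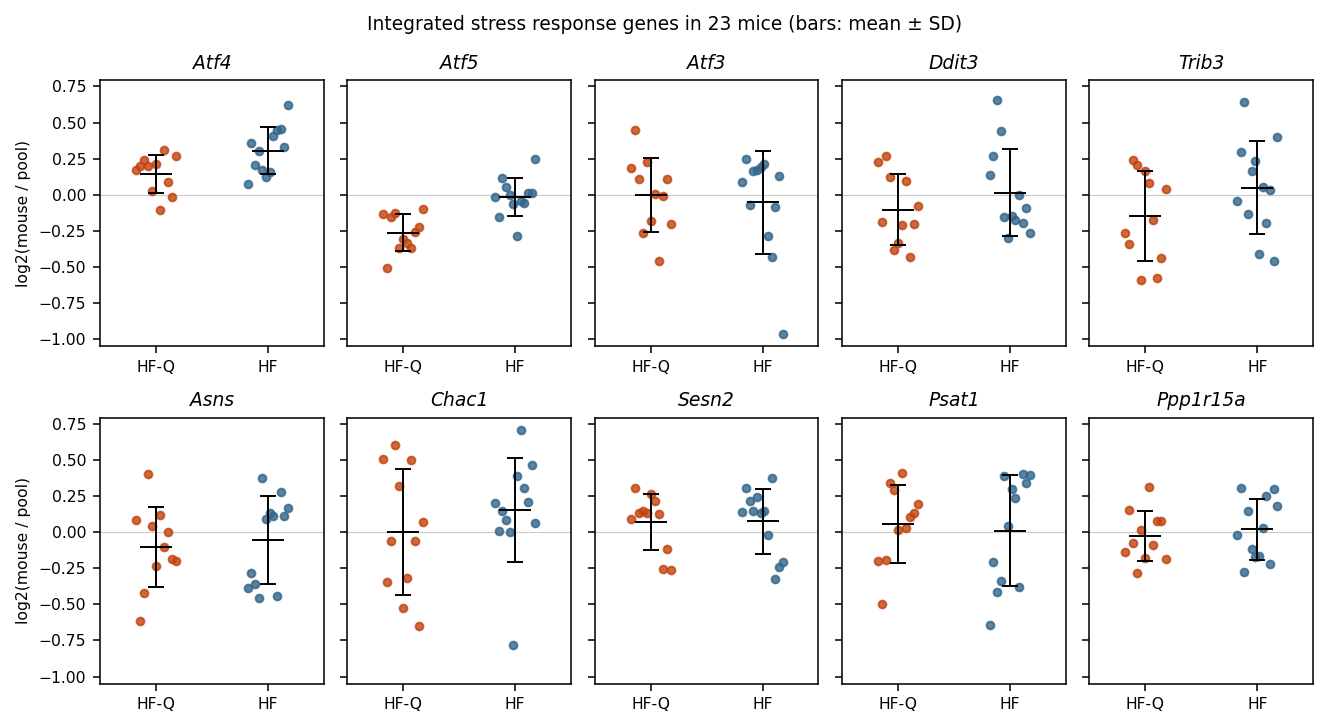
Levels of the 10 genes in each mouse, as log2 ratio to the common pool (vertical axis), for 11 HF-Q mice (left, orange) and 12 HF mice (right, blue); bars are mean ± SD. Atf5 is the gene whose HF-Q mice all lie below 0, at −0.51 to −0.098, while the HF mice spread around 0.

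**Figure D2:**
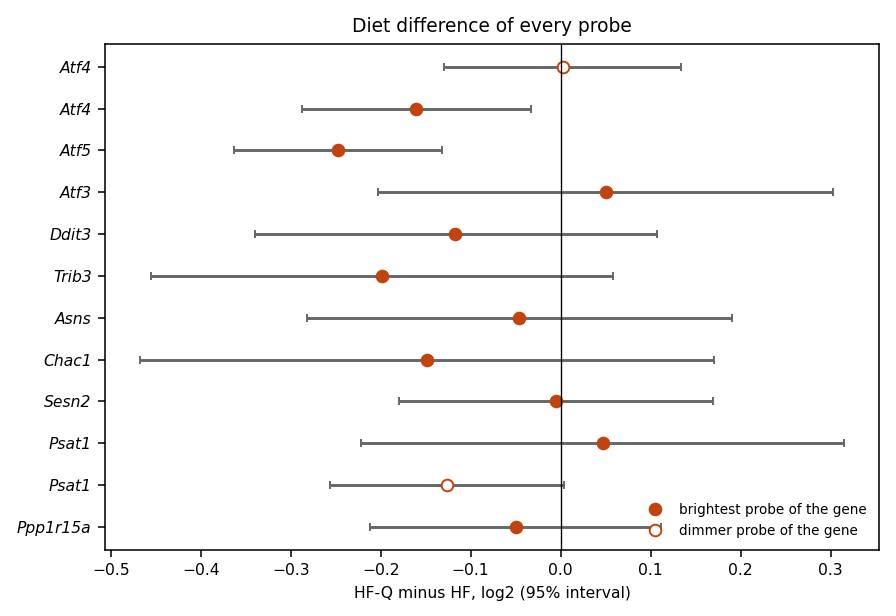
Difference between the diets (HF-Q minus HF, log2) with its 95% interval for each of the 12 probes; filled points are the brightest probe of a gene and open points the dimmer second probe. The Atf5 probe is drawn at −0.25 and the brighter Atf4 probe at −0.16, while the dimmer Atf4 probe is at 0.0021; the intervals are descriptive, since Atf5 was chosen by this difference.

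The genes differed widely in how much mice of the same diet varied. The within-diet SD was 0.130 for Atf5 and 0.147 for Atf4, below the median of 0.163 over all genes, which put them at percentiles 25.5 and 38.9 of all genes. It was 0.398 for Chac1, at percentile 94.9. Psat1 (percentile 91.8), Trib3 (90.7), Atf3 (90.3), Asns (88.4) and Ddit3 (86.2) also stood high, with Sesn2 (72.7) and Ppp1r15a (66.7) between. Atf5 and Atf4 were thus the steadiest of the 10 mRNAs within a diet.

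Genes around the pathway were read from lists of its regulators and targets. None of the 116 listed genes that were measured passed the test between the diets (limma, adjusted over all 21477 genes; background 0%). Of the eIF2 kinases and eIF2 factors, 9 were higher and 5 lower of 14 in HF-Q, and Eif2ak3, the kinase PERK of the endoplasmic reticulum, had a difference of −0.17 ± 0.058 (SE). Partner bZIP factors were split 6 and 6, the smallest unadjusted p being that of Jdp2 (0.21 ± 0.16, SE). Of 22 further stress targets of Atf4, 4 were higher and 18 lower, with a median of −0.033 and Sesn1 at 0.10 ± 0.054 (SE). Of 15 genes of amino acid and glutathione synthesis 11 were higher, Gclc, the catalytic subunit of the first step to glutathione, having 0.17 ± 0.072 (SE). Of 11 amino acid transporters 7 were lower, with the glycine transporter Slc6a9 at −0.21 ± 0.062 (SE). The 13 tRNA genes, synthetases together with the tRNA exporter Xpot, had a median of 0.00012, and Aars stood at −0.091 ± 0.053 (SE).

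The endoplasmic reticulum genes served by the other arms of the unfolded protein response, Atf6 and Ire1, had mostly positive differences. In HF-Q 14 of 18 were higher and 4 lower, with a median of 0.094, again with 0 called. Sdf2l1, a chaperone cofactor, had a difference of 0.24 ± 0.082 (SE) and Creld2 one of 0.21 ± 0.092 (SE). Edem1, which feeds misfolded glycoproteins to degradation, had 0.15 ± 0.065 (SE), and the co-chaperone Dnajb9 had −0.17 ± 0.056 (SE). Among 11 genes of the mitochondrial unfolded protein response, with which Atf5 is associated, 8 were higher, and the protease Yme1l1 had 0.17 ± 0.064 (SE) and the import subunit Timm17a 0.12 ± 0.054 (SE).

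The second question was whether Atf5 followed the other 9 genes from mouse to mouse. The relations were of both signs, and none passed the test over all genes. After each diet's mean was taken off, 6 of the 9 correlations with Atf5 over the 23 mice were positive and 3 negative, with a median r of 0.116. Over all genes the median was 0.00729 with 51.2% positive, and the central 90% of genes ran from −0.400 to 0.373. In limma fits of every other gene on the Atf5 level, 0 of 21476 genes passed (0%), with a smallest adjusted p of 0.177, and 1498 had an unadjusted p under 0.05 (6.98%), 568 with a positive slope (2.64%) and 930 with a negative one (4.33%). One of the 9, Trib3, was among the positive slopes and 2, Atf3 and Sesn2, among the negative ones.

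Trib3 was the gene most like Atf5 of the 9. Its r was 0.457 (permutation within diet, two-sided, p = 0.0325; Spearman rho 0.391, p = 0.0729), and 0.379 without the 2 mice farthest from the Atf5 median, which were HF-Q replicate 2 and HF replicate 12. The adjusted p over all genes was 0.662. Within the slides r was 0.503, −0.0937 and 0.427, so it was near 0 on slide 2. Atf4 had an r of 0.337 (permutation p = 0.127; rho 0.231, p = 0.295), 0.225 without those 2 mice and 0.452, 0.600 and 0.197 within the slides, with an adjusted p of 0.792 in limma. On its dimmer probe the r with Atf5 was −0.00987. Ddit3 had an r of 0.289 (permutation p = 0.194; rho 0.287, p = 0.194), 0.482 without the 2 mice, 0.160, 0.832 and 0.399 within the slides, and an adjusted limma p of 0.818.

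Atf3 and Sesn2 ran the other way, although with median centring of the arrays their r turned to 0.0684 and 0.164. Under that setting 7700 genes followed Atf5 at an adjusted p under 0.05 in limma, Atf4 (r = 0.688), Trib3 (0.647) and Ddit3 (0.566) among them. Atf3 had an r of −0.503 (permutation p = 0.0209; rho −0.452, p = 0.0320) and an adjusted limma p of 0.650. Without the 2 farthest mice the r was −0.108, so the relation rests on them, and HF replicate 12 alone held the highest Atf5 and the lowest Atf3 level of all 23 mice. Within the slides it was −0.484, −0.0439 and −0.504. Sesn2 had an r of −0.455 (permutation p = 0.0344; rho −0.451, p = 0.0361), −0.289 without the 2 mice, −0.843, −0.378 and −0.390 within the slides, and an adjusted limma p of 0.663. Neither relation passed over all genes.

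For the remaining 4 genes no relation with Atf5 could be told from 0. The r was 0.169 for Asns (permutation p = 0.457; rho 0.156, p = 0.485) and 0.109 for Psat1 (permutation p = 0.635; rho 0.0998, p = 0.650), and without the 2 farthest mice these were −0.120 and −0.254. Within the slides Asns had 0.191, 0.0734 and 0.370, and Psat1 0.327, −0.346 and 0.256. Chac1 had 0.116 (permutation p = 0.604; rho 0.157, p = 0.493; without the 2 mice 0.0689; within slides 0.311, 0.552 and 0.379). Ppp1r15a had −0.217 (permutation p = 0.335; rho −0.289, p = 0.184; without the 2 mice −0.281; within slides −0.0572, −0.296 and −0.181). Their adjusted limma p-values lay between 0.891 and 0.955.

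**Figure D3:**
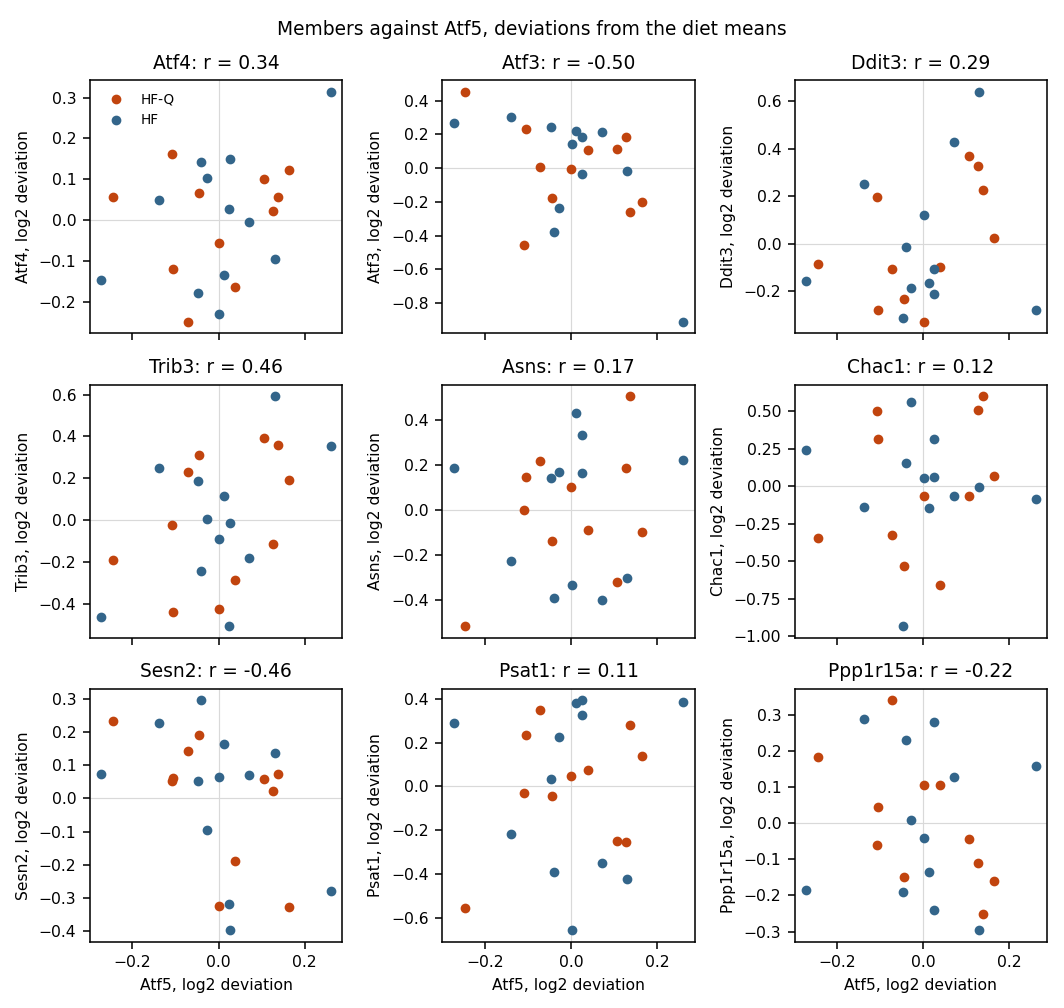
Each of the 9 other genes (vertical axes) against Atf5 (horizontal axes) in 23 mice, both as log2 deviations from the mean of the mouse's own diet; orange points are HF-Q and blue points HF mice. The clouds are wide in every panel, r runs from −0.50 (Atf3) to 0.46 (Trib3), and the single HF mouse at the lower right of the Atf3 panel is HF replicate 12.

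The genes whose levels were most like Atf5 over the mice were outside the pathway. The highest within-diet r over 23 mice belonged to Glo1, which encodes the detoxifying enzyme glyoxalase (0.848), and Coq7, of ubiquinone synthesis (0.811), followed by Wfdc10 (0.749), Taf3 (0.725) and A930017K11Rik (0.705). The lowest belonged to Npc1, a lysosomal cholesterol exporter (−0.744), Hlcs (−0.738), Ddx43 (−0.720), Dusp10 (−0.708) and the prostaglandin receptor Ptger4 (−0.684). Their adjusted limma p-values were 0.177 for Glo1 and 0.380 to 0.650 for the others. Of the listed pathway genes, Xpot, a tRNA exporter, and Clpp, the mitochondrial matrix protease, had positive slopes on Atf5 at an unadjusted p under 0.05 (r of 0.470 and 0.513). At that level the negative ones included the bZIP factors Nfe2l1 (−0.473), Fos (−0.440), Jund (−0.447) and Jun (−0.401), the targets Trib1 (−0.486) and Vegfa (−0.450), the transporter Slc1a4 (−0.414) and the endoplasmic reticulum genes Dnajc3 (−0.551) and Edem1 (−0.470). None passed over all genes, with adjusted p-values from 0.650 to 0.711 in limma. The eIF2 and amino acid synthesis lists had no gene at that level, the smallest p belonging to Ppp1r15b (r = −0.213) and Got1 (r = 0.349).

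Of 10 marker scores for cell types and gut regions, the goblet cell score had the largest r with Atf5 in size. The within-diet r was −0.534 (permutation p = 0.00890, adjusted over the 10 scores 0.0890; rho −0.480, p = 0.0194), −0.586 without the 2 farthest mice and −0.479, 0.245 and −0.704 within the slides. Of 8 goblet markers 7 were measured, all above background on every array, and their mean log2 level ran from 0.064 to 0.34 in HF-Q mice and from 0.065 to 0.47 in HF mice. The r of the 7 with Atf5 was uneven, with a median of −0.200 and 0 positive. It was −0.613 for Clca1, but −0.101 for Spink4, −0.0573 for Zg16 and −0.0333 for Spdef. The acinar and smooth muscle scores had r of 0.101 and −0.0388 with Atf5. The T cell score had −0.358 (permutation p = 0.101, adjusted over the 10 scores 0.337; rho −0.266, p = 0.228), −0.0476 without the 2 farthest mice and −0.621, 0.187 and −0.401 within the slides. The part of any of these cells in the Atf5 level was not tested.

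Over all 45 pairs of the 10 genes the relations pointed both ways, 22 positive and 23 negative, with a median r of −0.00977 and a range of −0.643 to 0.868. Only 5 pairs had an r beyond 0.5 in size. Those without Atf5 were not planned and are described below because of that r. Their permutation p-values are for single pairs, not adjusted over the 45, and are descriptive. Before these are read, a split among the mice has to be stated, since it runs through several of the genes. The mean log2 level of 15 cell cycle genes, a list added after the data were seen that holds Mki67, Top2a, Cdk1, the Mcm genes and Pcna among others, had its widest gap between −0.071 and 0.094. The next widest, between −0.211 (HF replicate 6) and −0.071 (HF replicate 9), was not much narrower. The score is thus graded, and the 2 sets are a cut through it. Below the gap lay 9 mice, HF-Q replicates 1, 2 and 3 and HF replicates 1, 2, 3, 4, 6 and 9, and above it the other 14. The lower set held 3 mice of each slide. Of the 11 replicate numbers found in both diets, 8 had both of their mice in the same set. Numbers 1, 2 and 3 were in the lower set in both diets. Whether 8 is more than unrelated numbers would give was not tested, and the labels do not say what the number stands for. The score ran from −0.53 to 0.30 in HF-Q mice (median 0.18) and from −0.57 to 0.42 in HF mice (median 0.064). The diets were not evenly split, with 3 HF-Q and 6 HF mice in the lower set and 8 and 6 in the upper one. The diet differences over all mice therefore mix the 2 sets unequally.

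Psat1 followed this split most closely. In the 9 mice with low cell cycle levels it ran from −0.50 to −0.19 in HF-Q and from −0.65 to 0.045 in HF, and in the 14 others from 0.014 to 0.41 in HF-Q and from 0.24 to 0.40 in HF. Its levels in the 2 sets overlapped in that 2 mice of the high set lay below the highest mouse of the low set, and all 15 cell cycle genes had a positive within-diet r with it, with a median of 0.868. Asns averaged −0.32 ± 0.36 in the HF-Q mice (SD, n = 3) and −0.31 ± 0.20 in the HF mice (SD, n = 6) of the low set, and −0.020 ± 0.21 in the HF-Q mice (SD, n = 8) and 0.20 ± 0.11 in the HF mice (SD, n = 6) of the high set. Ddit3 ran opposite, at 0.10 ± 0.25 and 0.20 ± 0.34 for HF-Q and HF in the low set, against −0.18 ± 0.21 and −0.17 ± 0.058 in the high set. Sesn2 did too, at 0.18 ± 0.11 and 0.22 ± 0.10 for HF-Q and HF in the low set, against 0.031 ± 0.21 and −0.067 ± 0.23 in the high set. Atf3 also ran opposite in HF-Q, at 0.25 ± 0.18 in the low set against −0.096 ± 0.22 in the high set. In HF its means were 0.032 ± 0.25 and −0.14 ± 0.45, and the latter includes HF replicate 12 at −0.97. The other HF mice of the high set ran from −0.29 to 0.21, inside the low-set HF range of −0.43 to 0.25. The lower Atf3 mean of the high set in HF thus rests on that mouse. With that mouse included, 15 of 15 cell cycle genes had a negative within-diet r with Atf3. Atf5 was nearly level across the split, at −0.27 ± 0.21 (SD, n = 3) in HF-Q and −0.019 ± 0.095 (SD, n = 6) in HF in the low set, and −0.26 ± 0.11 (SD, n = 8) in HF-Q and −0.011 ± 0.17 (SD, n = 6) in HF in the high set. Its diet difference was −0.25 in both sets, which hold the same values that chose it. That of the brighter Atf4 probe was −0.049 in the low set and −0.24 in the high set. Psat1 had 0.027 in the low set and −0.155 in the high set, against 0.047 over all mice. For Asns these were −0.011 and −0.216, against −0.046. The part of the split in the diet differences was not tested.

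**Figure D4:**
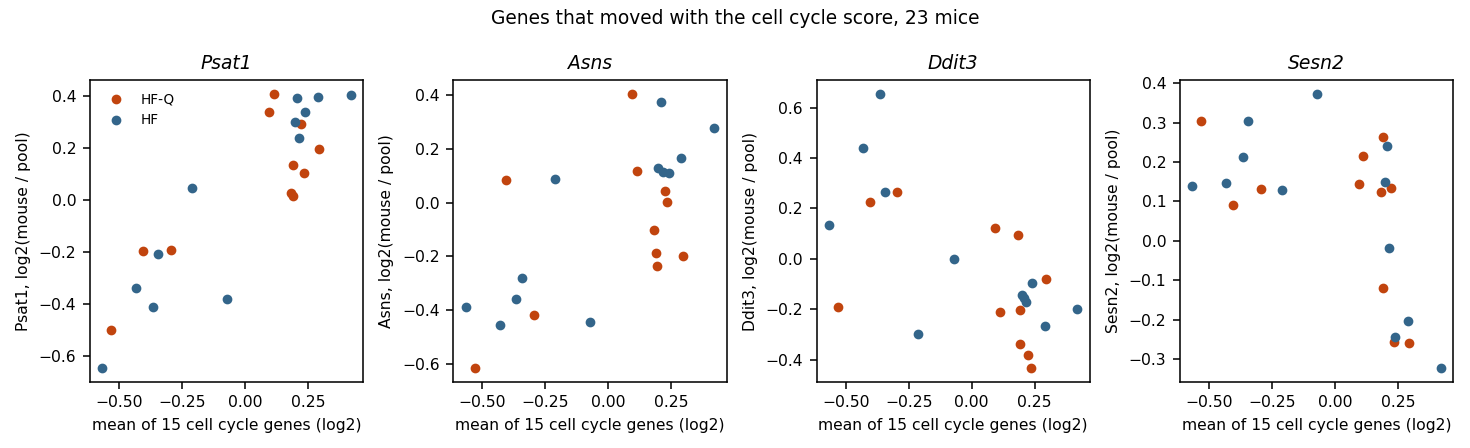
Psat1, Asns, Ddit3 and Sesn2 (vertical axes, log2 ratio to the pool) against the mean log2 level of 15 cell cycle genes (horizontal axes) in 11 HF-Q mice (orange) and 12 HF mice (blue). Of the 9 mice left of the gap between −0.071 and 0.094, 8 are below 0 in Psat1 and 7 in Asns, and the highest Ddit3 levels are among them.

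Asns and Psat1, which supply asparagine and serine, were the pair that moved together. Over all 23 mice, the split included, the within-diet r was 0.868 (permutation p = 1e-05, the smallest the resampling can give; rho 0.871, p = 1e-05), with 0.833 without the 2 mice farthest from the Asns median and 0.963, 0.855 and 0.982 within the slides. In limma fits across all genes the slope had an adjusted p of 0.000107 on the Asns level and 3.21e-06 on the Psat1 level. Within the sets r was 0.714 in the 9 mice of the low set and 0.716 in the 14 of the high set, so the pair moved together on both sides of the gap as well. Since the sets were chosen from the values, these 2 correlations and those of the next paragraph are descriptions without a test.

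The r of Ddit3 and of Sesn2 with Psat1 was smaller in size inside the sets than over all mice. The sets were cut on a score that had an r of 0.884 with Psat1, so each spans a narrower range of Psat1. A smaller r inside them can follow from the cut alone. Ddit3 and Psat1 had an r of −0.579 over all mice (permutation p = 0.00550; rho −0.576, p = 0.00572; within slides −0.732, −0.728 and −0.342; adjusted limma p = 0.0390 on the Ddit3 level and 0.0145 on the Psat1 level), but −0.210 in the low set and 0.0713 in the high set. Sesn2 and Psat1 had −0.504 over all mice (permutation p = 0.0197; rho −0.416, p = 0.0565; within slides −0.607, −0.616 and −0.501), but −0.276 in the low set and 0.0696 in the high set. Their adjusted limma p was 0.0866 on the Sesn2 level and 0.0463 on the Psat1 level, so the pair passed on the Psat1 level only. Both negative relations over all mice were thus smaller, or of the other sign, inside the sets, from which nothing is concluded for the reason given. Atf4 and Atf3 had an r of −0.643 (permutation p = 0.00138; rho −0.605, p = 0.00364; within slides −0.884, −0.219 and −0.503), with −0.464 in the low set and −0.844 in the high set. That pair did not pass over all genes in limma, with adjusted p-values of 0.985 on the Atf4 level and 0.199 on the Atf3 level. Atf5 with Trib3 was positive in both sets, at 0.349 in the low set and 0.542 in the high set. Atf5 with Atf4 was −0.154 in the low set and 0.584 in the high set.

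**Figure D5:**
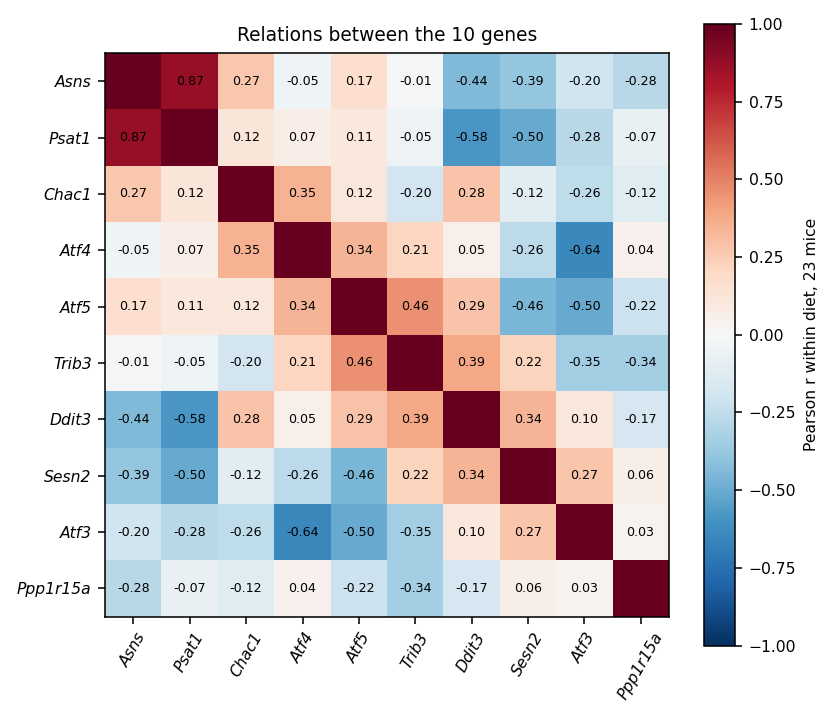
Pearson r within diet between every pair of the 10 genes over 23 mice, with red for positive and blue for negative r. Asns and Psat1 (0.87) form the one pair with a high positive r, Ddit3 and Sesn2 are negative against both, and the Atf5 row runs from −0.50 to 0.46.

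The genes also differed in how many others shared their course over the mice. In the limma fits, Psat1 had 3545 genes with a positive slope (16.5% of 21476) and 2372 with a negative one (11.0%), and Asns had 2124 (9.89%) and 1279 (5.96%). Ddit3 had 804 (3.74%) and 1019 (4.74%), Sesn2 776 (3.61%) and 659 (3.07%), and Trib3 44 (0.205%) and 24 (0.112%). Atf3 had 2 (0.00931%) and 1 (0.00466%), and Atf4, Atf5, Chac1 and Ppp1r15a had 0, each with limma at an adjusted p under 0.05. The 4 genes with the highest counts were also the 4 with the largest r with the cell cycle score in size, 0.884 for Psat1, 0.673 for Asns, −0.634 for Ddit3 and −0.575 for Sesn2.

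Among the listed Atf4 targets, several of serine and one-carbon synthesis shared the course of Psat1. Genes of lists outside the Atf4 targets did so too. Of 14 eIF2 kinases and factors 6 had a positive slope on Psat1 that passed and 1 a negative one. The mitochondrial unfolded protein response had 5 of 11 positive, and the other endoplasmic reticulum arms 6 of 18, with 0 negative in both. Of 12 partner bZIP factors 1 was positive and 3 were negative. On the Psat1 level 8 of 15 genes of amino acid and glutathione synthesis had a positive slope that passed and 2 a negative one (over all genes 16.5% and 11.0%), and on the Asns level 7 and 2 (9.89% and 5.96%). Phgdh, the first enzyme of serine synthesis, had an r of 0.878 with Psat1 (adjusted p = 1.93e-06 in limma), Shmt2, the mitochondrial serine hydroxymethyltransferase, 0.861 (6.88e-06) and the folate enzyme Mthfd2 0.769 (0.000284). Psph, the last enzyme of serine synthesis, did not pass (r = 0.461, adjusted p = 0.0870 in limma). The proline enzymes split, with 0.560 for Pycr1 (0.0249) and −0.589 for Aldh18a1 (0.0114), and Gclm, the regulatory subunit of glutathione synthesis, had −0.656 (0.00337). Of the 13 tRNA genes (synthetases and Xpot) 6 had a positive slope on Psat1 and 7 on Asns, all of them synthetases, with none negative. Wars, for example, had an r of 0.780 with Psat1 (adjusted p = 0.000340 in limma). Of 22 stress targets 2 were positive and 4 negative on Psat1, which together is about the share over all genes (16.5% and 11.0%), and Nupr1 was one of the positive ones (r = 0.787, adjusted p = 6.94e-05). The genes most like Psat1 were not Atf4 targets but genes of replication and chromosome division, H2ac15 (r = 0.951), Cdca5 (0.950), Prim1 (0.943) and Gins1 (0.940), with Impa2 (0.942), of inositol metabolism, between them. On the Atf5 level none of these lists had a gene that passed, but 0 of all 21476 other genes did (0%), so this is no trait of the lists.

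No mouse had the whole set of genes high or low. Counted against the median of its own diet, a mouse had between 2 and 8 of the 10 genes above it, the lowest being 2 in HF-Q replicate 9 and in HF replicates 1 and 6, and the highest 8 in HF replicate 11. No other sets of 10 genes were counted, and unrelated genes could give such counts too. The counts therefore do not say whether the genes share a course.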

How the data were processed

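Expression was measured in 23 mice on 2-colour Agilent arrays. Per the submitters' processing notes, Agilent Feature Extraction 10.7.3.1 read the spots. The deposited spot and background columns hold linear intensity, not normalized between arrays. The deposited log10 ratios of the same software and the authors' log2 table (31718 spots; slope on Cy5 0.930 to 1.07 and on Cy3 −1.01 to −0.668 against the scanner values, so it runs as mouse over pool, with a median of 9.11 per column; its centring is unknown) served as alternatives. The authors' flag columns, deposited as yes or no values, marked outlier spots and spots well above background.

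Here the background was corrected with normexp (offset 50) on all spots, 3671 control spots and 260 to 355 outlier spots per array were left out, and each array was normalized by loess in limma 3.58.1 (R 4.3.3). Of the probes, 29249 (52.5%) were kept, each well above background in 50% or more of the mice of either diet, and the brightest probe stood for a gene, giving 21477 genes. The 55681 probes were named through RefSeq by accession (27235), symbol (3581) or synonym (565), and otherwise by the file (24300). Diet was tested with lmFit and eBayes, and relations to a gene by its deviation from the diet means as a term beside diet. Permutations used 100000 resamples within diet in Python 3.11.15 with numpy 2.4.6. The procedure was tested on simulated data. No 2 arrays correlated above 0.723 or below −0.278. The number of arrays limits the precision. The labels do not say whether the mice were housed apart, so p-values measure the spread between these samples.

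The genes and lists were chosen with earlier results of these data known. Named beside them are the 5 genes most and least like Atf5 and, of each pathway list, those with an unadjusted p under 0.05 for diet or for the slope on Atf5 (at most 4), or else the smallest p. Slopes of the lists on Asns and Psat1, the cell cycle list, its 2 sets of mice, the T cell genes named and the genes named there were added after seeing the data. The pairs without Atf5 that are described singly were picked by their r. Background correction, normalization, filters, probe choice, slide, replicate numbers, array weights and each array left out were varied.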

Additional observations from a re-analysis of the deposited data

How the results depend on the processing

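The Atf5 difference (HF-Q minus HF) stayed negative in all 15 alternatives, from −0.27 to −0.17 on the log2 scale, and from −0.27 to −0.22 with each array left out in turn. These refits use the arrays that chose Atf5, so they show only how far the value depends on the processing. The test between the diets called 0 genes in every alternative and with each array left out. Between 7 and 9 of the 10 genes had a negative difference when 1 array was left out, 5 with median centring of each array in place of loess, and 4 within slide 2, where Sesn2 was at 0.22. With the dimmer Atf4 probe, an alternative chosen after seeing the data, the Atf4 difference was 0.0021 and its r with Atf5 −0.00987. Median centring changed the relations most: 7700 genes followed Atf5 at an adjusted p under 0.05 (limma), and r with Atf5 was 0.688 for Atf4, 0.566 for Ddit3 and 0.647 for Trib3 (adjusted p 0.00626, 0.0168 and 0.00600), and 0.0684 for Atf3, 0.164 for Sesn2 and 0.0533 for Ppp1r15a; the cause was not tested. With the log2 values deposited by the authors, 1 gene followed Atf5, and Psat1 had −0.00338. Within slide 2 r was −0.0937 for Trib3 and −0.346 for Psat1. Without the 2 mice farthest from the Atf5 median it was −0.120 for Asns and −0.254 for Psat1. By the correlation of their deviations, the replicate numbers that the diets share did not pair the mice (r of same-numbered mice −0.345 to 0.391, over 0.1 in 5 of 11 pairs, best with its own number in 1), although 8 of the 11 pairs lay in 1 set of the cell cycle split. The fit with the replicate block gave an Atf5 difference of −0.22, 0 genes called, and r with Atf5 of −0.0130 for Atf4, −0.334 for Atf3, 0.247 for Ddit3, 0.813 for Trib3, 0.411 for Asns, −0.186 for Chac1, −0.0318 for Sesn2, 0.442 for Psat1 and −0.0142 for Ppp1r15a. With each array left out, r with Atf5 ran from −0.00633 to 0.275 for Asns (negative without HF-Q replicate 2) and from −0.0665 to 0.237 for Psat1 (negative without HF-Q replicate 2 and without HF replicate 12), and the other 7 kept their sign. Asns with Psat1 stayed between 0.833 and 0.982 throughout; fitted within slides 1, 2 and 3 alone (0.963, 0.855 and 0.982) it had adjusted p-values of 0.447, 0.287 and 0.115, with 7 or 8 mice each.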

Other observations

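Values that belong to no comparison above concern the second Psat1 probe, which had a median Cy5 signal of 106 against 999 for the brighter one. Its within-diet r with the brighter probe was 0.351 over 23 mice, and its r with Atf5 was 0.0155. The ratio of the SD in HF-Q to the SD in HF was 0.980 for Atf5, 0.802 for Atf4 and 1.22 for Chac1.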
